A study of Mus musculus with 6 samples.

Results

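The genes described here are the expressed genes of the mouse genome that span more than 400 kb from their first to their last annotated base. A gene of the count table was taken when its span in GENCODE mouse release vM21 (end minus start plus 1, build GRCm38, joined by Ensembl identifier) exceeded 400000 bases and its mean level reached 1 CPM (counts scaled to the library total) in the CX-5461 libraries or in the DMSO libraries. Of the 22740 genes of the table, 21919 had a span and 347 of these spanned more than 400 kb. Of the 347, 68 had no count in any library, 133 had counts but stayed below the level, and 146 were members. The members were thus chosen by measured levels as well as by span. The level was reached in both groups by 118 members, only with CX-5461 by 28, and only with DMSO by none. The group levels that chose the members are the measurements compared below, so the 28 had to be higher with CX-5461, and their differences are given as a description without a test.

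Cells of the mouse melanoma line B16, labelled BRAFV600E-negative, were cultured in DMEM that held serum, penicillin and streptomycin and kept for 3 days either with 1 uM CX-5461 or with the vehicle DMSO, and total RNA was sequenced from 3 samples of each. The study concerned the isolation of melanoma cells by their melanin content. CX-5461 is known to inhibit RNA polymerase I, to bind G-quadruplex DNA and to trap topoisomerase II on DNA. The labels do not say whether the 3 samples of a group were separate cultures, so p-values measure only the spread between these samples. That spread was unequal. Between pairs of libraries, chi-square per degree of freedom of the counts was 5.65 to 9.40 with CX-5461 and 1.57 to 2.56 with DMSO. The test used below pools the spread of both groups for each gene.

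Genes of this size are nearly all intron. RNA polymerase II needs hours to cross them, and the passage depends on topoisomerases that relieve the twist of the DNA, on elongation factors and on protection from premature polyadenylation. In mammals the class is rich in genes for adhesion, synaptic signalling, scaffolds and transcription factors that are best known from neurons, and many of these genes have several start sites, some of them deep inside the gene.

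The total count was 17877481 to 22908309 per CX-5461 library and 17573990 to 20198979 per DMSO library, so that 3 counts, used as a floor that covers counting error only, equalled 0.131 to 0.171 CPM. The melanocyte markers Tyr, Tyrp1, Dct, Pmel, Mlana, Sox10 and Mitf, which check the labelled cell type, summed to 27739 to 29616 CPM with CX-5461 and 22782 to 23363 CPM with DMSO. Of 6 neuron markers, Nefl, Snap25 and Stmn2 were at 0 in all 6 libraries and the sum of the list was 0.168 to 0.645 CPM with CX-5461 and 0.0569 to 0.226 CPM with DMSO. The 6 fibroblast markers summed to 30.5 to 33.4 CPM with CX-5461 and 12.8 to 17.1 CPM with DMSO, and the part of such cells in the results was not tested. The 5 macrophage markers (10.9 to 13.3 CPM with CX-5461 and 10.8 to 11.2 CPM with DMSO, Itgam at 0) and the 4 keratinocyte markers (2.23 to 2.63 CPM with CX-5461 and 0.891 to 1.71 CPM with DMSO, Krt5 at 0) were low.

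The member with the largest fall and the 3 with the largest rises among those at 1 CPM or more in both groups are introduced by the DNA at their starts. Each window runs from 250 bases before to 50 bases after a start annotated by RefSeq (GRCm38.p6), on the strand of the gene, 5′ to 3′. In Slc7a11, the cystine and glutamate exchanger (chr3:50443564-50443863, minus strand), capitals mark TGATGCAA and its reverse complement, the amino acid response element at which ATF4 is known to bind. In Dgki, diacylglycerol kinase iota (chr6:37299927-37300226, minus strand), and Prkg1, the cGMP-dependent protein kinase (chr19:31764984-31765283, minus strand), capitals mark the runs of at least 3 C or G that together match a G-quadruplex pattern. In Exoc4, a subunit of the exocyst that tethers secretory vesicles (chr6:33248878-33249177, plus strand), capitals mark CCAAT boxes, here on the reverse strand.
Slc7a11: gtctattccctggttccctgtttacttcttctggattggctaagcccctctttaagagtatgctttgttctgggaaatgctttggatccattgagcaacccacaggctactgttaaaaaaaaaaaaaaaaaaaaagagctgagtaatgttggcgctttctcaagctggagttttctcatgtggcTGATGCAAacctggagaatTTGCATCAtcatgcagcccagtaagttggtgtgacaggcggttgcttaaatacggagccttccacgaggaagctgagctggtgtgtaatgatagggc
Dgki: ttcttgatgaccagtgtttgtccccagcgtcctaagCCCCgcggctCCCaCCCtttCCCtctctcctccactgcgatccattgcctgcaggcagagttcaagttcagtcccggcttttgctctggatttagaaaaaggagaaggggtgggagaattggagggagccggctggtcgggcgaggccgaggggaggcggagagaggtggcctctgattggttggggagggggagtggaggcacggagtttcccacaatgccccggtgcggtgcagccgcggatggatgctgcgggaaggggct
Prkg1: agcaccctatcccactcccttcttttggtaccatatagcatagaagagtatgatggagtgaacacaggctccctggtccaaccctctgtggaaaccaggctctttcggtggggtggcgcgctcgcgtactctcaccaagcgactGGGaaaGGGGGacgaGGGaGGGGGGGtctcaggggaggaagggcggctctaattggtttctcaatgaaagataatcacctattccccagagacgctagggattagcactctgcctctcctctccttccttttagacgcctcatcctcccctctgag
Exoc4: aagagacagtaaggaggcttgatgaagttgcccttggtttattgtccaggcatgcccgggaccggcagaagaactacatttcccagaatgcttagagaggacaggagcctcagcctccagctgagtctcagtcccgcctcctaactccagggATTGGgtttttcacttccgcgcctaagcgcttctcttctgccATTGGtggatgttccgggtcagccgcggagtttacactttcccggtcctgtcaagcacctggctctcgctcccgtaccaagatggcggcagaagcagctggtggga

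Long genes were mostly higher with CX-5461. By edgeR's quasi-likelihood test with Benjamini-Hochberg adjustment over the 12198 genes tested, and an adjusted p below 0.05, 106 of the 118 members at 1 CPM or more in both groups were higher, where 37.2% of all tested genes were called higher. Another 4 of the 118 were lower, where 36.5% of all tested genes were called lower, and 8 did not pass. In either direction 73.7% of all tested genes were called. The 28 members at that level only with CX-5461 are left out of these counts. The median log2 change of the 118 was 1.45, where that of all tested genes was -0.005. At least 2-fold higher were 81 of the 118, where 11.7% of all tested genes were called higher by that much, and 1 was at least 2-fold lower, where the share was 4.16%. All 3 CX-5461 libraries lay above all 3 DMSO libraries for 101 of the 118, where the share was 33.6%, and below them for 4, where it was 43.4%. These shares describe the members, whose level was part of their choice. Of the members 32 overlap another coding gene, and those named below are Prkg1, Ncald, Prkce, Prkca, Snd1, Dock1, Dennd1a, Vps13b, Slc39a11, Dmd, Foxp1, Schip1, Syn3, Mast4, Grip1, Macrod2 and Camta1, and their counts are uncertain to that extent since it is not given whether counting used strand. An offset that takes out the trend of the change with gene span over all tested genes left 48 of the 118 higher and made 44 lower, with a median log2 change of -0.09.

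**Figure D1:**
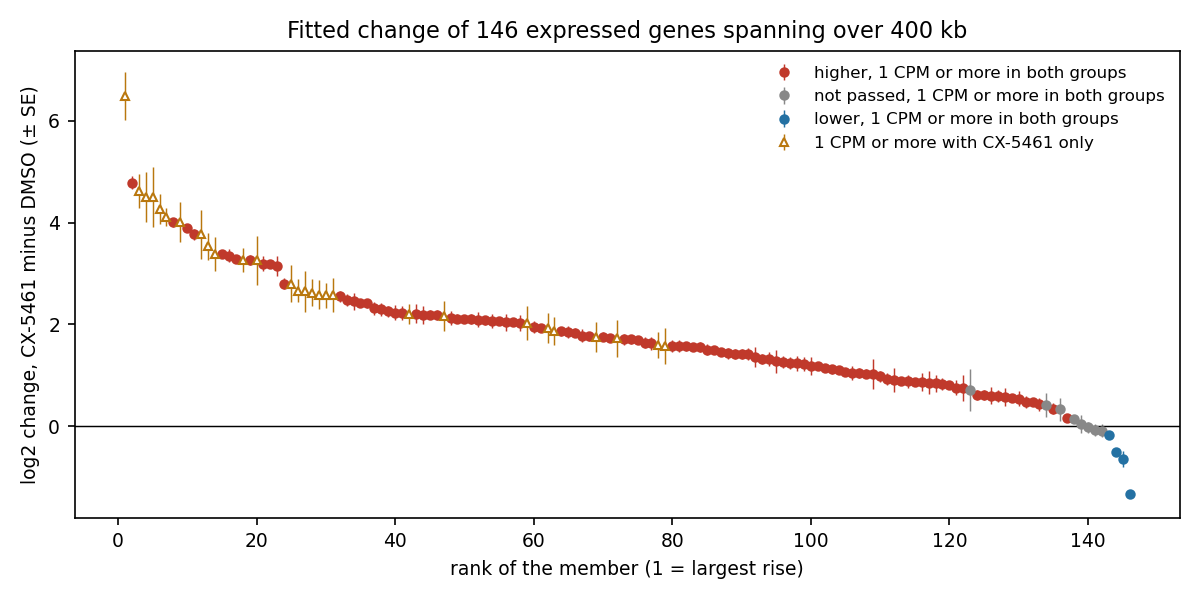
Fitted log2 change with CX-5461 against DMSO, with its standard error, for the 146 members in order of their change; colours give the edgeR call and open triangles the members at 1 CPM or more with CX-5461 only. The 4 members called lower end the row at the right, and the 28 open triangles lie above 0 because of how members were chosen.

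Together the members took 0.606%, 0.531% and 0.599% of the counts of the CX-5461 libraries (replicates 1, 2 and 3), against 0.248%, 0.237% and 0.243% of the DMSO libraries. The median member at 1 CPM or more in both groups had a mean of 21.98 CPM with CX-5461 and 8.15 CPM with DMSO. CX-5461 replicate 2 was the lowest CX-5461 library for 81 of the 118 (68.6%), against 38.2% of the 11152 tested genes up to 400 kb at that level. Without that library 107 of the 118 were higher and 4 lower.

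Among the members at 1 CPM or more in both groups, the largest rise was that of Dgki, a signalling enzyme. Role groups are counted here over their members at 1 CPM or more in both groups. Beside each count stand the 89.8% of the 118 members and the 37.2% of all tested genes that were higher. A role group near 89.8% restates the rise of the members and is no result about its function. Of 18 kinases, phosphatases and second-messenger proteins, 17 were higher and Pde4b did not pass. Dgki (chr6:36846022-37300184), which removes the lipid messenger diacylglycerol by phosphorylating it, had 53.9, 47.9 and 55.6 CPM in the CX-5461 libraries, against 2.65, 1.88 and 1.48 CPM in the DMSO libraries (replicates 1, 2 and 3 in each case). Its log2 change was 4.78 ± 0.13 (SE, adjusted p = 6.39e-14), and the groups were far apart. Prkg1 (chr19:30564489-31765033), which carries nitric oxide and cGMP signals, had 68.3, 59.7 and 69.2 CPM in the CX-5461 libraries, against 4.34, 4.21 and 4.38 CPM in the DMSO libraries. The log2 change was 4.01 ± 0.09 (adjusted p = 1.81e-14), with no overlap of the groups. Ncald, the calcium sensor neurocalcin delta, had 167, 173 and 168 CPM in the CX-5461 libraries, against 16.7, 16.8 and 18.1 CPM in the DMSO libraries (log2 change 3.37 ± 0.06, adjusted p = 1.96e-15). All its CX-5461 libraries lay above every DMSO library.

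The receptor tyrosine phosphatases Ptprd, Ptprg, Ptprk and Ptprm were members, and they sense contact with neighbouring cells or matrix. Ptprm, whose ectodomain binds itself on adjacent cells, had 285, 257 and 266 CPM in the CX-5461 libraries, against 30.7, 31.4 and 31.2 CPM in the DMSO libraries. Its log2 change was 3.19 ± 0.06 (adjusted p = 1.96e-15), with the groups wide apart. Ptprd, the longest member at 2271 kb, had 19.9, 14.3 and 18.6 CPM in the CX-5461 libraries, against 3.89, 4.11 and 3.87 CPM in the DMSO libraries (log2 change 2.23 ± 0.14, adjusted p = 9.59e-10). Ptprg changed by 2.801 ± 0.10 and Ptprk by 1.504 ± 0.12 on the log2 scale, and neither overlapped between the groups. Among the kinases, Cdk14, a cyclin Y-dependent kinase of Wnt signalling, averaged 10.8 ± 0.697 CPM with CX-5461 and 2.33 ± 0.186 CPM with DMSO (SD, n = 3 each, log2 change 2.29 ± 0.13). The protein kinase C genes Prkce and Prkca changed by 1.86 ± 0.12 and 1.43 ± 0.11 on the log2 scale.

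All 11 genes of membrane traffic and secretion were higher, where 89.8% of the 118 members were. Exoc4 (chr6:33249085-33973979) had 348, 318 and 370.5 CPM in the CX-5461 libraries, against 24.1, 24.5 and 25.2 CPM in the DMSO libraries (log2 change 3.89 ± 0.06, adjusted p = 1.96e-15). The lowest CX-5461 library was far above the highest DMSO library. Exoc6b, another exocyst subunit, averaged 83.8 ± 8.77 CPM with CX-5461 and 27.4 ± 0.675 CPM with DMSO (SD, n = 3 each, log2 change 1.69 ± 0.07). Vps13b, a bridge-like lipid transfer protein of the Golgi, had 103, 80.9 and 98.6 CPM in the CX-5461 libraries, against 29.996, 27.9 and 25.5 CPM in the DMSO libraries (log2 change 1.84 ± 0.08, adjusted p = 3.24e-11). Cpne4, a copine that binds membranes in response to calcium, had 38.98, 38.6 and 38.9 CPM in the CX-5461 libraries, against 3.72, 3.86 and 5.24 CPM in the DMSO libraries (log2 change 3.26 ± 0.10, adjusted p = 5.43e-13). The libraries of the groups did not overlap for either gene.

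All 19 genes of the cytoskeleton and its scaffolds were called higher, where 89.8% of the 118 members were. Diap3, a formin that builds unbranched actin filaments and acts in cytokinesis, had 35.4, 36.3 and 42.6 CPM in the CX-5461 libraries, against 3.21, 2.82 and 2.79 CPM in the DMSO libraries (log2 change 3.77 ± 0.11, adjusted p = 2.18e-13). Nav2, a microtubule-associated navigator protein, had 117, 78.1 and 107 CPM in the CX-5461 libraries, against 10.2, 9.51 and 11.6 CPM in the DMSO libraries (log2 change 3.35 ± 0.13, adjusted p = 5.91e-12). In both genes the lowest CX-5461 library was many times the highest DMSO library. Dst, the spectraplakin dystonin that links cytoskeletal filaments, had 502, 341 and 426 CPM in the CX-5461 libraries, against 219.7, 209 and 225 CPM in the DMSO libraries (log2 change 1.03 ± 0.10, adjusted p = 1.15e-07). CX-5461 replicate 2 was the lowest of its group, yet all 3 were above the DMSO libraries. Dmd, which encodes dystrophin and spans 2257 kb on the X chromosome, had 3.54, 4.36 and 4.52 CPM in the CX-5461 libraries, against 1.86, 2.03 and 1.82 CPM in the DMSO libraries (log2 change 1.18 ± 0.17, adjusted p = 1.86e-05). Its relative Utrn, utrophin, averaged 139 ± 19.8 CPM with CX-5461 and 33.99 ± 1.97 CPM with DMSO (SD, n = 3 each, log2 change 2.11 ± 0.09). Etl4 averaged 79.3 ± 7.46 CPM with CX-5461 and 30.3 ± 0.615 CPM with DMSO, and Frmd4a, a FERM-domain scaffold of cell polarity, 111 ± 12.9 CPM with CX-5461 and 79.9 ± 2.35 CPM with DMSO, changes of 1.46 ± 0.07 and 0.55 ± 0.07 on the log2 scale. Nav3 was called higher at 0.34 ± 0.10 although its libraries overlapped, with 16.8 CPM in CX-5461 replicate 2 and 18.2 CPM in DMSO replicate 3.

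**Figure D2:**
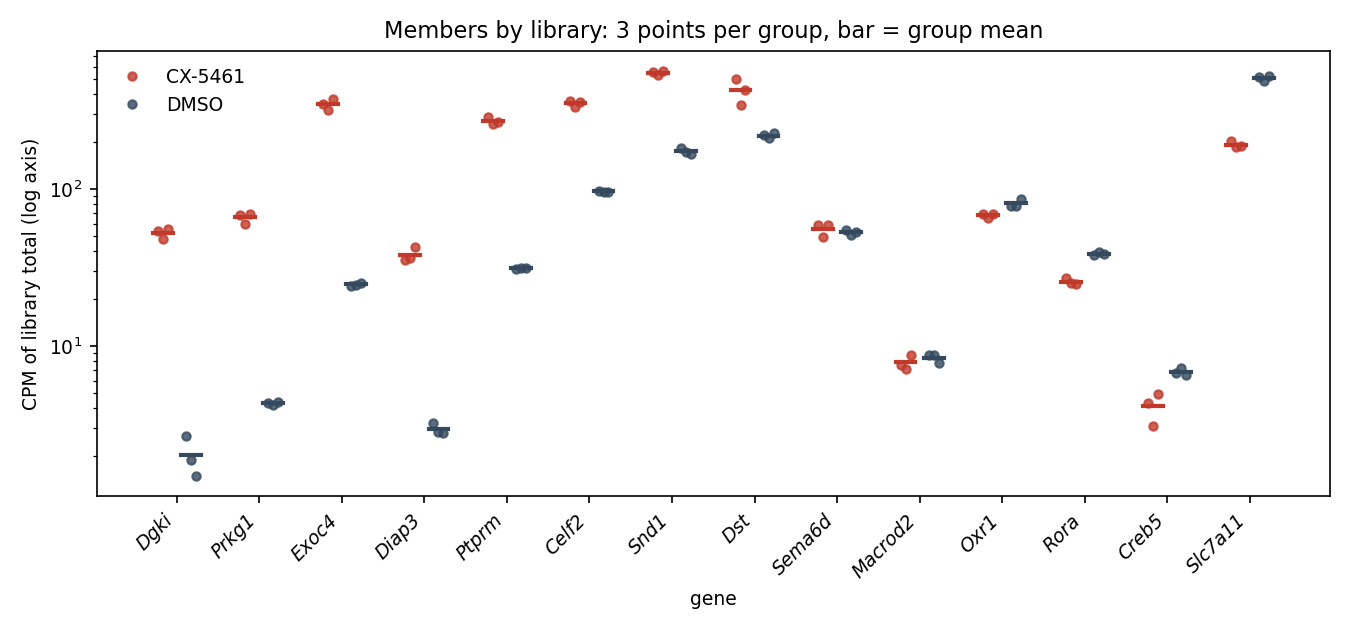
Level of 14 members in each library as CPM of the library total on a log axis, CX-5461 at the left of each pair and DMSO at its right, with bars at the group means. From Dgki to Dst the CX-5461 libraries lie above the DMSO libraries, Sema6d and Macrod2 overlap, and Oxr1, Rora, Creb5 and Slc7a11 lie below.

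Of 7 genes of small GTPase regulation, 6 were higher and Kalrn did not pass (0.33 ± 0.23, log2). Dock1, an exchange factor that activates Rac, had 51.3, 48.9 and 57.97 CPM in the CX-5461 libraries, against 13.9, 12.03 and 12.7 CPM in the DMSO libraries (log2 change 2.11 ± 0.08, adjusted p = 4.07e-12), and Dennd1a, an exchange factor for Rab35, averaged 68.1 ± 5.48 CPM with CX-5461 and 17.1 ± 1.69 CPM with DMSO (SD, n = 3 each, 2.07 ± 0.08 on the log2 scale). All 5 matrix and glycosylation genes were higher. Large, the glycosyltransferase that extends the matrix-binding sugar of dystroglycan, had 67.4, 70.6 and 72.5 CPM in the CX-5461 libraries, against 7.56, 7.08 and 8.14 CPM in the DMSO libraries (log2 change 3.28 ± 0.07, adjusted p = 1.81e-14). Hmcn1, the matrix protein hemicentin 1, averaged 59.4 ± 10.8 CPM with CX-5461 and 11.2 ± 0.6996 CPM with DMSO (SD, n = 3 each, 2.48 ± 0.12 on the log2 scale). Neither gene overlapped between groups.

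Adhesion and polarity genes were higher in 6 of 8 cases, the other two being Mdga2 and Pcdh9, which did not pass. Pard3, a polarity scaffold of cell junctions, had 45.3, 43.7 and 56.2 CPM in the CX-5461 libraries, against 18.2, 16.7 and 16.6 CPM in the DMSO libraries (log2 change 1.57 ± 0.09, adjusted p = 4.38e-10). Tenm4, a teneurin, was called at 0.43 ± 0.13 with libraries that overlapped. Of the axon guidance genes Robo1 and Sema6d, Robo1 was higher. Robo1, a receptor for Slit proteins, had 44.4, 37.5 and 50.03 CPM in the CX-5461 libraries, against 17.4, 15.2 and 14.9 CPM in the DMSO libraries (log2 change 1.55 ± 0.10, adjusted p = 1.21e-09), with no overlap. Sema6d, a transmembrane semaphorin, had 58.97, 49.1 and 58.7 CPM in the CX-5461 libraries, against 54.7, 51.04 and 52.9 CPM in the DMSO libraries. Its log2 change was 0.15 ± 0.07 (adjusted p = 0.0616), and CX-5461 replicate 2 lay below all 3 DMSO libraries. Without that library Sema6d was called higher at 0.22 (adjusted p = 0.000708).

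Among 7 channels and transporters, 6 were higher and Slc7a11 was lower. Abca13, a lipid transporter of the ABC class, had 53.9, 38.1 and 47.9 CPM in the CX-5461 libraries, against 5.24, 4.41 and 6.601 CPM in the DMSO libraries (log2 change 3.19 ± 0.14, adjusted p = 2.27e-11). Slc39a11, a zinc transporter of the ZIP family, averaged 38.4 ± 1.81 CPM with CX-5461 and 11.97 ± 1.16 CPM with DMSO (SD, n = 3 each, 1.76 ± 0.08 on the log2 scale). All 3 glutamate and orphan receptors were higher, among them Grik2, a kainate receptor subunit, with 12.4, 11.6 and 12.8 CPM in the CX-5461 libraries, against 3.27, 2.18 and 1.65 CPM in the DMSO libraries (log2 change 2.45 ± 0.16, adjusted p = 2.37e-09). Gpr158, a receptor that binds glycine, averaged 37.2 ± 2.57 CPM with CX-5461 and 10.8 ± 1.001 CPM with DMSO (SD, n = 3 each, 1.86 ± 0.09). Markers of neurons were at or near 0, as given above, while these receptor genes were read at these levels.

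All 5 RNA-binding and translation genes were higher. Snd1, a nuclease of the RNA-induced silencing complex, had 553, 530.4 and 563 CPM in the CX-5461 libraries, against 182, 173 and 166 CPM in the DMSO libraries (log2 change 1.73 ± 0.05, adjusted p = 6.92e-14). With CX-5461 it had, per kilobase of exon, the highest level of any member, 56.2 CPM per kb, against 17.8 CPM per kb with DMSO. Celf2, a splicing regulator, had 361, 330.1 and 359 CPM in the CX-5461 libraries, against 97.04, 96.04 and 95.7 CPM in the DMSO libraries (log2 change 1.94 ± 0.05, adjusted p = 3.64e-14). Of 6 enzymes, ubiquitin ligases and repair genes, 4 were higher, Oxr1 was lower and Macrod2 did not pass. Fbxl17, the substrate receptor of a ubiquitin ligase, averaged 49.2 ± 0.659 CPM with CX-5461 and 12.6 ± 0.618 CPM with DMSO (SD, n = 3 each, 2.04 ± 0.07 on the log2 scale). None of these 3 genes overlapped between the groups.

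Transcription regulators had a lower median change than the other role groups of at least 5 members. Of 20, 17 were higher, 2 were lower and 1 did not pass. The median log2 change was 0.89. In 8 of the 20 the rise was at least 2-fold, beside 81 of the 118. The difference between the role groups was not tested. Zbtb20, a zinc-finger repressor, had 112, 62.2 and 95.2 CPM in the CX-5461 libraries, against 57.6, 55.8 and 54.9 CPM in the DMSO libraries (log2 change 0.76 ± 0.14, adjusted p = 0.000151). Its CX-5461 replicate 2 lay only a little above the DMSO libraries. Of the SOXD factors, Sox6 averaged 61.2 ± 5.99 CPM with CX-5461 and 35.6 ± 1.16 CPM with DMSO (SD, n = 3 each), and Sox5 averaged 35.4 ± 3.01 CPM with CX-5461 and 8.85 ± 0.985 CPM with DMSO. Their log2 changes were 0.86 ± 0.07 and 2.08 ± 0.09. Foxp1, Klf12 and Zfhx3 were called higher at 0.16, 1.02 and 0.57 on the log2 scale with libraries that overlapped between the groups. Bnc2, a zinc-finger protein linked to pigmentation, averaged 37.2 ± 2.94 CPM with CX-5461 and 18.7 ± 0.256 CPM with DMSO (SD, n = 3 each, log2 change 1.07 ± 0.07) and lay just inside the span threshold.

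The 28 members that reached 1 CPM only with CX-5461 had DMSO means of 0.0376 to 0.961 CPM and CX-5461 means of 1.21 to 14.04 CPM, and 6 of them had a DMSO mean at or below the floor of 3 counts. The highest was Gpc6, a glypican of the cell surface, with 12.4, 15.05 and 14.6 CPM in the CX-5461 libraries, against 0.846, 0.594 and 1.14 CPM in the DMSO libraries. B3galt1, a galactosyltransferase, had 5.28, 4.14 and 4.57 CPM in the CX-5461 libraries, against 1.01, 0.743 and 0.569 CPM in the DMSO libraries. For each of the 28, all CX-5461 libraries lay above all DMSO libraries, where 33.6% of all tested genes did so. The rule that admitted the 28 favours this separation. Several of the others are known mainly from neurons, such as Plxna4, a semaphorin receptor, with 4.41, 2.85 and 4.42 CPM in the CX-5461 libraries, against 0.113, 0.149 and 0.228 CPM in the DMSO libraries. Dpyd, the first enzyme of pyrimidine breakdown, had 2.75, 3.86 and 3.03 CPM in the CX-5461 libraries, against 0.6202, 0.644 and 0.341 CPM in the DMSO libraries.

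At the edges of the rule, Bnc2 spanned 400.2 kb and Dst 400.4 kb, just inside the span threshold, and Plxdc2 at 399.5 kb and Adk at 396 kb lay just outside. Plxdc2 averaged 10.4 ± 0.3597 CPM with CX-5461 and 1.86 ± 0.428 CPM with DMSO and Adk 26.3 ± 3.22 CPM with CX-5461 and 6.94 ± 0.439 CPM with DMSO (SD, n = 3 each). Both genes just outside the span were thus higher with CX-5461 in every library, as Bnc2 and Dst were. Just inside the level were Kcnq5, a potassium channel, with 1.21 ± 0.134 CPM with CX-5461 and 0.196 ± 0.122 CPM with DMSO, and Grip1, a receptor scaffold, with 1.22 ± 0.334 CPM with CX-5461 and 0.0873 ± 0.05305 CPM with DMSO. Just outside were Immp2l with 0.908 ± 0.288 CPM with CX-5461 and 0.396 ± 0.00183 CPM with DMSO and Thsd4 with 0.902 ± 0.237 CPM with CX-5461 and 0.0495 ± 0.0857 CPM with DMSO.

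The exceptions to the rise were the 4 members called lower and the 8 that did not pass. Slc7a11 (chr3:49892526-50443614), which imports cystine for glutathione synthesis, had 201, 185 and 187 CPM in the CX-5461 libraries, against 512, 487 and 524 CPM in the DMSO libraries. It fell by 1.34 ± 0.05 on the log2 scale (adjusted p = 2.58e-12), and every CX-5461 library was far below every DMSO library. With DMSO it had, per kilobase of exon, the highest level of all members, 36.5 CPM per kb, against 13.7 CPM per kb with CX-5461. Creb5, a CREB family factor, had 4.32, 3.08 and 4.96 CPM in the CX-5461 libraries, against 6.71, 7.28 and 6.49 CPM in the DMSO libraries (log2 change -0.64 ± 0.15, adjusted p = 0.00151). Rora, a nuclear receptor of the circadian clock, had 27.1, 24.9 and 24.9 CPM in the CX-5461 libraries, against 37.6, 39.4 and 38.6 CPM in the DMSO libraries (log2 change -0.51 ± 0.07, adjusted p = 4.07e-06). The groups did not overlap for these genes.

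Oxr1, which protects against oxidative damage, had 69.3, 64.9 and 69.6 CPM in the CX-5461 libraries, against 77.9, 77.3 and 86.7 CPM in the DMSO libraries (log2 change -0.17 ± 0.06, adjusted p = 0.0141). All its CX-5461 libraries lay below its DMSO libraries, but the call was lost with an offset for GC content (-0.06) and without DMSO replicate 3 (-0.12). Of the 8 that did not pass, the 4 with the most counts were Sema6d, given above, Pde4b, Macrod2 and Camta1. Macrod2, a hydrolase of ADP-ribose and the third longest member at 1998 kb, had 7.55, 7.16 and 8.79 CPM in the CX-5461 libraries, against 8.68, 8.76 and 7.74 CPM in the DMSO libraries. Its log2 change was -0.03 ± 0.11 (adjusted p = 0.843), with a sign that turned with an offset for GC content (0.07) and without CX-5461 replicate 2 (0.02) or DMSO replicate 2 (0.004). Pde4b, a cAMP phosphodiesterase, averaged 10.9 ± 0.611 CPM with CX-5461 and 12.1 ± 2.18 CPM with DMSO (SD, n = 3 each), and Camta1, a calmodulin-binding transcription activator, 7.02 ± 0.752 CPM with CX-5461 and 7.91 ± 1.16 CPM with DMSO. Their log2 changes were -0.07 ± 0.12 and -0.09 ± 0.13, and both sets of libraries overlapped. Without DMSO replicate 3 Pde4b was at 0.08, and without DMSO replicate 1 Camta1 was at 0.01.

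A gene that spans more than 400 kb need not be transcribed over that length, since the annotation joins all its transcripts. The APPRIS principal transcript is the isoform that GENCODE marks as the main one, and the longest was taken where several shared the best mark. Its span was set beside the change after the values had been seen. It was up to 100 kb in 6 of the 118 members at 1 CPM or more in both groups, and 4 of these 6 were among the 12 that were not higher. They were Slc7a11 with a principal transcript of 78.7 kb, Rora with 90.1 kb, Oxr1 with 28.4 kb and Sema6d with 57.2 kb. The other two, Pcdh7 with 11.4 kb and Schip1 with 54.2 kb, were higher at 1.64 and 0.47 on the log2 scale. In Slc7a11 a single gap of 472 kb between exons makes up most of the span.

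Members with a principal transcript of more than 200 kb were higher in 102 cases and lower in 1 of 109, while 6 did not pass. Their median log2 change was 1.504. Of the 9 with up to 200 kb, 4 were higher (44.4%) and 3 lower (33.3%), 2 did not pass, and the median was 0.41. The calls of these 9 were near the shares of all tested genes, 37.2% higher and 36.5% lower. Creb5, at 413 kb, was the only member called lower with a principal transcript of more than 200 kb. The transcript that these cells make was not measured here. A member also had more annotated transcripts where it was not higher, with a median of 13 for these, against 8.5 for the members called higher, and Spearman's rho between the change and the number of transcripts was -0.27 across the 118.

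**Figure D3:**
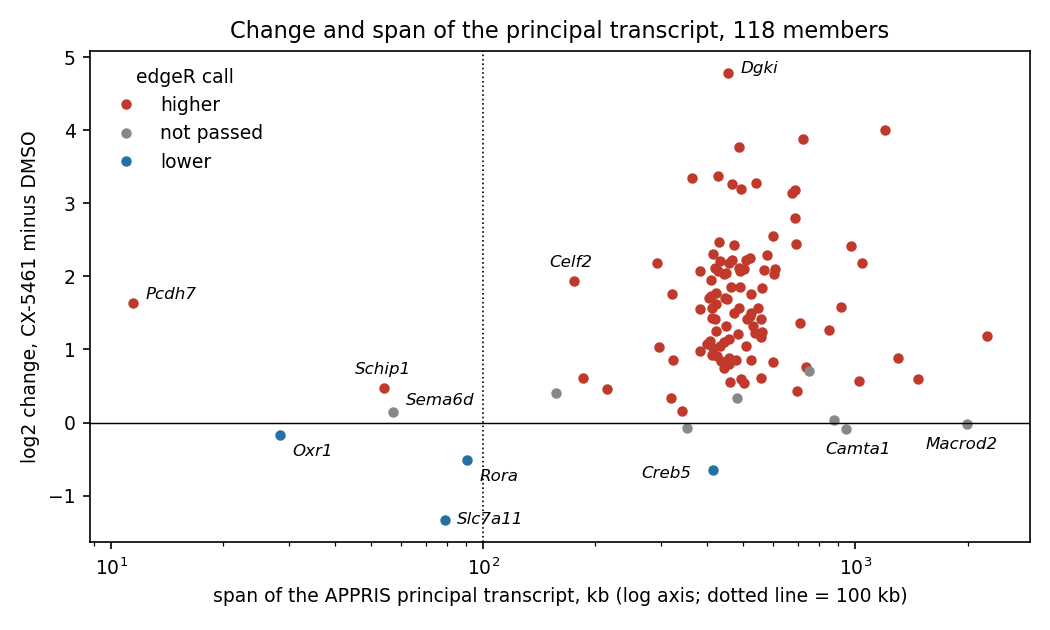
Log2 change with CX-5461 against DMSO and span of the APPRIS principal transcript (log axis, kb) for the 118 members at 1 CPM or more in both groups, coloured by the edgeR call. Left of the dotted line at 100 kb are 3 of the 4 members called lower, and Creb5 is the fourth.

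The change showed no steady dependence on level. Across all 146 members Spearman's rho between the log2 change and the mean log2 level over the 6 libraries was -0.24, and across the 118 at 1 CPM or more in both groups it was 0.13. The sign thus differed with and without the 28 members admitted only through their CX-5461 level. Leaving the 28 out also bars large rises at low mean levels, since the 118 needed a DMSO mean of at least 1 CPM. The values across the 118 in this paragraph are thus partly set by that rule. With the level taken per kilobase of exon, rho was -0.06 across the 146 and 0.28 across the 118. All points share the same libraries, and low levels carry larger counting error. In 4 bins of level of near equal size, from low to high, the 118 had median log2 changes of 1.101, 1.504, 1.76 and 1.53. In the third bin all 29 members were higher, and the highest bin held 26 higher and 3 lower of 30.

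**Figure D4:**
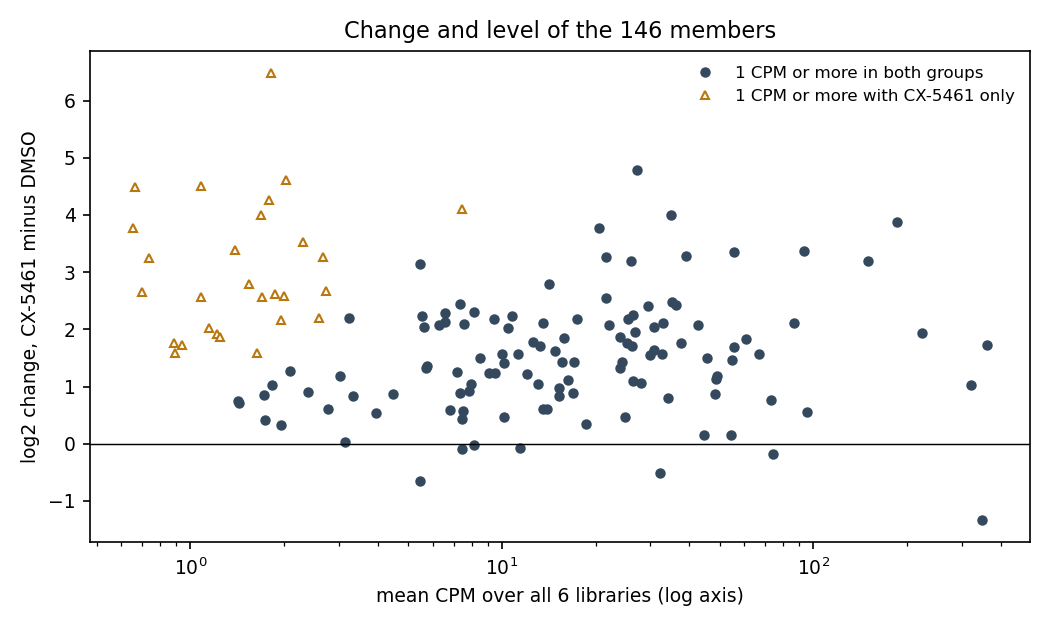
Log2 change with CX-5461 against DMSO and mean level over all 6 libraries (CPM, log axis) for the 146 members; filled circles were at 1 CPM or more in both groups and open triangles with CX-5461 only. The triangles lie above 0 and mostly at the low end, while the filled circles give a rho of 0.13.

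Within the members the change did not grow with span. Spearman's rho was 0.07 across the 146 and -0.04 across the 118, beside 0.20 across the 11152 tested genes up to 400 kb at 1 CPM or more in both groups. At that level the median log2 change was -0.03 for spans of 30 to 100 kb, 0.29 for 100 to 200 kb and 0.91 for 200 to 400 kb. Above the threshold it was 1.64 for 400 to 500 kb (55 members), 1.42 for 500 to 700 kb (36), 1.32 for 700 to 1000 kb (18) and 1.18 beyond that (9). For the longest gap between exons, which in members had a median of 159 kb, rho was -0.16 across the 118, for the exon number 0.02, for the exonic length -0.14 and for exonic GC content 0.02. Members had a median of 25 exons, where tested genes up to 400 kb had 10, and exons made up 1.81% of the median member's span, where they made up 19.4% in those genes.

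Relatives of the members allow a comparison within families whose genes differ in span. In the 19 families given here a member had at least 1 tested relative that spanned less than 100 kb. A further family, in which the long gene was lower, is not reported here and is outside the counts below. In 18 of these the member was at 1 CPM or more in both groups, and with such members alone the median change of the long genes was above that of the short ones in 14 of the 18, in 13 by more than 0.1 on the log2 scale. In nuclear factor I the long Nfib and the short Nfic were level, both at 0.46. With the offset for gene span the long genes were above in 9 of the 18. The 28 long genes were higher in 27 cases and lower in none, with a median log2 change of 1.62, where 89.8% of the 118 members were higher. The 35 short relatives were higher in 13 (37.1%) and lower in 13 (37.1%), with a median of -0.03. Their shares were near those of all tested genes, 37.2% higher and 36.5% lower. The widest gap was among the diacylglycerol kinases. Beside Dgki, at 4.78, Dgka, Dgkd, Dgke and Dgkq were lower (-1.09, -0.47, -0.49 and -0.38) and Dgkz was higher (0.57).

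The exocyst is a complex whose subunits act together, and its genes differ widely in length. Exoc4 and Exoc6b, at 725 and 451 kb, changed by 3.89 and 1.69 on the log2 scale. Exoc1, Exoc3, Exoc5 and Exoc8, at 4.60 to 62.6 kb, did not pass, with changes of 0.06, 0.12, -0.11 and 0.02, and Exoc7 was called at 0.15. Among receptor tyrosine phosphatases, the short Ptprf and Ptpru were lower (-1.14 and -2.62) and Ptprs was higher (0.92), all beside 4 long genes between 1.504 and 3.19. The short Cdk15, at 2.50, was above Cdk14 at 2.29, and the short Celf5, at 2.29, above Celf2 at 1.94. The other short relatives of Cdk14 and Celf2 lay below them. In 4 families the short relatives had the higher median. In the SOXD factors the short Sox13 was higher at 2.91, beside 2.08 for Sox5 and 0.86 for Sox6. Sox13 averaged only 1.21 CPM with CX-5461 and 0.165 CPM with DMSO, the latter near the floor of 3 counts. In the MAST kinases the short Mastl and Mast3 were higher at 1.74 and 0.53, one above and one below Mast4 at 0.83. Among the ROBO receptors the short Robo3 was higher at 2.85, beside 1.55 for Robo1. Robo3 averaged 0.922 CPM with CX-5461 and 0.122 CPM with DMSO, the latter below the floor of 3 counts. Short relatives were not held to 1 CPM in both groups, as the long genes were. With Robo2, left out by that level, the long ROBO median was 3.02. In the PDE4 phosphodiesterases Pde4a was higher at 0.51, beside 0.88 for Pde4d and -0.07 for Pde4b.

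**Figure D5:**
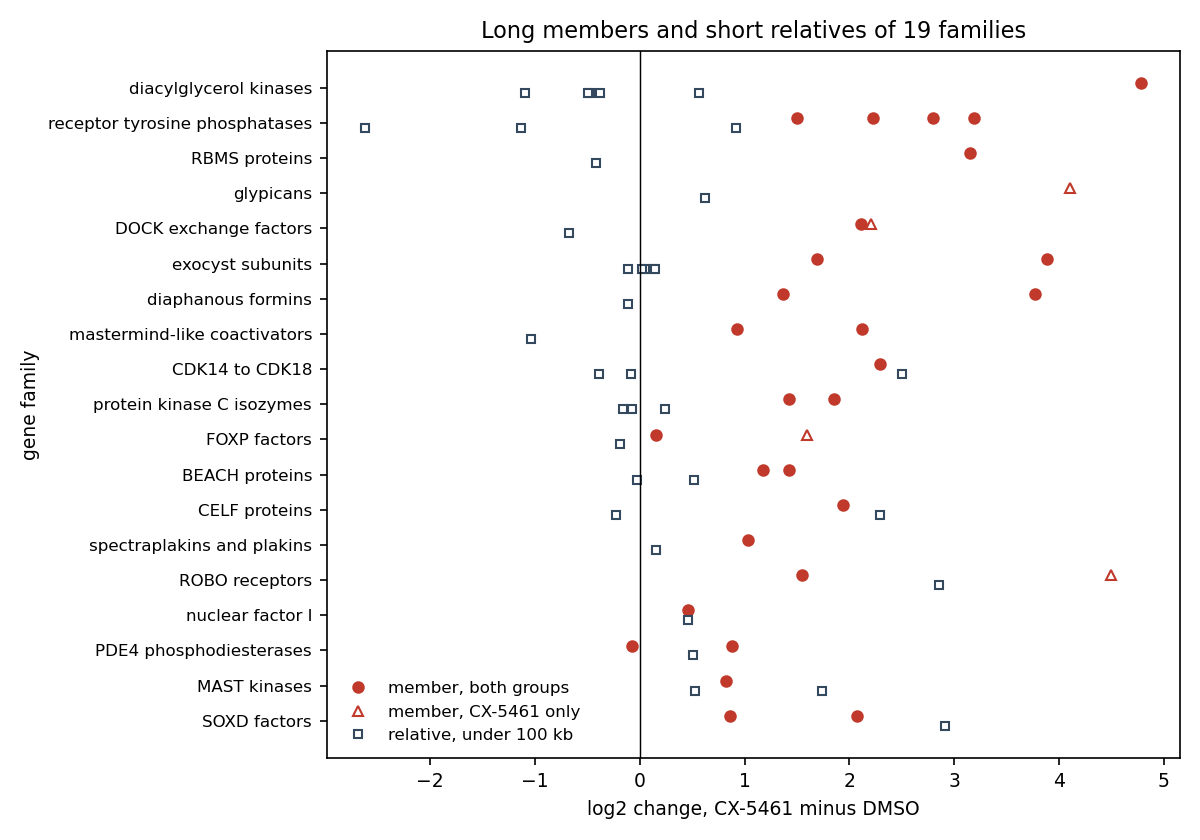
Log2 change with CX-5461 against DMSO of the members spanning over 400 kb (filled circles at 1 CPM or more in both groups, open triangles with CX-5461 only) and of their relatives under 100 kb (open squares) in 19 gene families, ordered by the difference of the medians over all points. Diacylglycerol kinases have the widest difference, and in the bottom 3 families the relatives have the higher median.

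For short genes near the members the median change was close to that of all short genes. Within 1 Mb of a member lay 728 tested genes of less than 50 kb, of which 206 were higher and 315 lower while 207 did not pass. These were 28.3% higher and 43.3% lower, close to the 30.6% and 41.6% of all 8741 tested genes of that size. Their median log2 change was -0.09, beside -0.07 for the 8741. Of the tested genes of less than 50 kb, 8 lay wholly inside a member, and 2 of these were higher and 6 lower. Timp3, an inhibitor of metalloproteinases inside Syn3, averaged 77.4 ± 6.35 CPM with CX-5461 and 163 ± 5.22 CPM with DMSO (SD, n = 3 each, log2 change -1.001 ± 0.06), while Syn3 was higher at 0.74. Cstf2t, a polyadenylation factor inside Prkg1, averaged 48.2 ± 1.89 CPM with CX-5461 and 83.5 ± 1.24 CPM with DMSO (log2 change -0.72 ± 0.05), while Prkg1 was higher at 4.01. A stretch of chromosome 6 (chr6:32144268-37300184, GRCm38) holds Exoc4 and Dgki, both higher, and Plxna4, which reached 1 CPM only with CX-5461. The 16 other tested genes there were higher in 7 cases (43.8%) and lower in 5 (31.2%), where 37.2% and 36.5% of all tested genes were so called. Their median log2 change was -0.09, with a highest of 0.70 in Chchd3 and a lowest of -4.32 in Akr1b7. Akr1b7 averaged 2.82 CPM with CX-5461 and 58.96 CPM with DMSO.

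Genes for the machinery that carries RNA polymerase II along a gene were read as a list of 39 elongation factors, topoisomerases and RNA-processing proteins. Of these 5 were higher (12.8%) and 23 lower (59.0%), while 11 did not pass, where 37.2% of all tested genes were called higher and 36.5% lower. The median log2 change was -0.19, where that of all tested genes was -0.005. Polr2a, the largest subunit of RNA polymerase II, had 417, 311 and 432 CPM in the CX-5461 libraries, against 657, 668 and 643 CPM in the DMSO libraries (log2 change -0.69 ± 0.08, adjusted p = 2.61e-06). Cdk12, a kinase that sustains elongation and suppresses early polyadenylation, averaged 52.9 ± 6.04 CPM with CX-5461 and 66.6 ± 1.92 CPM with DMSO (SD, n = 3 each, log2 change -0.26 ± 0.07, adjusted p = 0.00431). Sfpq, an RNA-binding protein needed for long genes in mouse neurons, averaged 187 ± 8.22 CPM with CX-5461 and 119.8 ± 3.64 CPM with DMSO (log2 change 0.71 ± 0.05, adjusted p = 2.47e-09). The groups did not overlap for these 3 genes. Top1 and Top2b, the topoisomerases known to act on long genes, did not pass, at 0.02 ± 0.05 and 0.03 ± 0.05 on the log2 scale, values that turned to -0.05 each with library totals only and were called higher with an offset for GC content (0.195 and 0.27). Top2a, also on the list, was higher, with 254 ± 30.8 CPM with CX-5461 and 118 ± 10.9 CPM with DMSO (log2 change 1.18 ± 0.08, adjusted p = 1.96e-09).

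RefSeq windows were found for 115 of the 146 members and for 9610 of the 12133 tested genes that could be matched. The pattern of 4 runs of GGG with 1 to 7 bases between them, on either strand, occurred in 28.7% of the member windows and 28.2% of all windows, and Dgki and Prkg1, shown above, are among those with it. TGATGCAA, searched after the values were seen, occurred on either strand in 2.61% of the member windows (3) and in 0.552% of all. The 3 were Slc7a11, where the copies begin at positions -66 and -47 from the start, Ank2 and Abca13, and Ank2 and Abca13 were higher (1.56 and 3.19). CATGTG, an E-box of the kind that MITF binds, occurred in 15.7% of the member windows and 7.83% of all, and CACGTG in 6.09% and 10.4%. TATAAA occurred in 6.09% and 6.48%, CCAAT in 34.8% and 39.0%, and GGGCGG in 47.8% and 67.0%, in the same order. The median ratio of observed to expected CpG was 0.653 in the member windows and 0.781 in all. More than 1 window was listed for 40.0% of the members and 20.97% of all genes, and the window nearest to the start of the principal transcript was taken. No limit of distance was set, and in some members that window was far off. It was 772000 bases away in Zfhx3, 635896 in Rora and 372638 in Inpp4b. A match describes these letters and not a used start or a bound site.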

How the data were processed

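RNA was sequenced from 6 samples of B16 cells, 3 with CX-5461 and 3 with DMSO, and grouped by the treatment in the labels. The deposited table holds whole-number counts per gene, which the authors had not normalized, as column totals that differ show. The submitters' processing notes give GRCm38 and mm10 as builds. Aligner, counter, use of strand and use of intronic reads are not stated (not given in the sources used here), so spliced and unspliced RNA cannot be told apart. All 6 columns were mapped by name.

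From the counts, edgeR 4.0.16 (R 4.3.3) was run with filterByExpr (minimum count 10), TMM factors, the treatment as the only term and a two-sided quasi-likelihood F test, adjusted by Benjamini-Hochberg over 12198 genes, with a call at an adjusted p below 0.05. Log2 changes are CX-5461 minus DMSO with SE = |change| / √F. Printed levels are CPM of library totals without TMM factors. Spans, exons, principal transcripts and GC content came from GENCODE vM21. The test was checked on counts simulated for 12106 genes, 200 of them changed, with the same dispersion for all genes and both groups. It recovered 184 of the 200, and 6 of its 190 calls were false. In the real data 73.7% of all tested genes were called, so the check does not give the error of the calls reported here. Same-numbered libraries did not deviate together (r of 0.036, 0.0046 and -0.0040), so the numbers were not used as pairs.

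The members, gene lists, families and role groups were chosen with earlier results of these data known. Named members are the 8 largest rises and up to 8 largest falls at 1 CPM or more in both groups, the 4 with most counts that did not pass, the 3 longest, the 2 with most counts of each role list, those at the edges of the thresholds and the 3 highest with CX-5461 only. Members named beyond these illustrate a role group or family or a call with overlapping libraries, and were chosen after their values were seen. A member that this rule names and 1 gene family, in which the long gene was lower, are not reported here. Alternatives were RLE factors, library totals, no filter, DESeq2 1.42.0, the replicate block, offsets for GC content and for gene span, a stricter adjusted p (0.01), omission of each library in turn, and other limits of span and level. Versions of Python (3.11.15) and matplotlib (3.10.9) were used for the figures.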

Additional observations from a re-analysis of the deposited data

How the results depend on the processing

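Of the 118 members at 1 CPM or more in both groups, 106 were higher and 4 lower in the reported fit, and 104 to 108 were higher and 3 to 4 lower with RLE factors, library totals, no filter, DESeq2, the replicate block, the GC offsets and an adjusted p of 0.01. Their median log2 change was 1.37 with library totals. These values over the 118 were added after seeing the data. With the replicate number as a block, 108 of the 118 were higher and 4 lower, with a median of 1.44, and among named genes the block gave Sema6d a call (0.14). With the offset for gene span, which by construction takes out the trend with span, 48 of the 118 were higher and 44 lower, with a median of -0.086 and 9 of 18 families with the long genes above. Over all 146 members, whose 28 admitted through CX-5461 alone had to be higher, 134 were higher and 4 lower in the reported fit with a median of 1.71, and with that offset 66 were higher and 44 lower, the median log2 change was 0.25, rho was -0.21 for level and -0.14 for span, and 10 of 19 families had the long genes above. The rules for membership moved values by changing the genes counted. Spans over 300 kb gave 240 higher, 9 lower, a median of 1.51, and rho of -0.21 for level and 0.24 for span. Spans over 500 kb gave 75 higher, 2 lower, and rho of -0.33 for level and 0.084 for span. For level rho was -0.26 at 0.5 CPM, -0.21 at 2 CPM and -0.19 at 1 CPM over all 6 libraries, and rho for span was 0.035 and 0.047 under the last 2. Members at 1 CPM or more in both groups had a median of 1.45, and principal transcripts over 400 kb gave 1 lower, and these 2 rules were chosen after seeing the data.

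Leaving out 1 library gave 104 to 107 of the 118 higher and 3 to 4 lower, medians of 1.44 to 1.504, and 13 to 14 of 18 families. Over the 146 it gave 132 to 135 higher and 3 to 4 lower, medians of 1.63 to 1.75, rho for level of -0.26 to -0.22 and for span of 0.062 to 0.093, and 14 to 16 families. Of 616 values of 44 named genes, 580 kept direction and side of the threshold, 4 lost the call, 9 gained one and 23 took the opposite sign. With the span offset these were Dst (-0.21), Zbtb20 (-1.02), Robo1 (-0.20), Frmd4a (-1.01), Celf2 (-0.035), Etl4 (-0.45), Sema6d (-1.39), Ptprd (-0.45), Bnc2 (-0.17), Sox6 (-0.67), Dmd (-1.49) and Top1 (-0.019). With the GC offset Macrod2 was at 0.066, and at 0.064 with the replicate block added. With library totals only Top1 was at -0.049 and Top2b at -0.048. Without 1 library Macrod2 ranged from -0.115 to 0.023, and was also positive without DMSO replicate 2 (0.0041). Pde4b ranged from -0.166 to 0.082, Camta1 from -0.184 to 0.0092, Top1 from -0.0095 to 0.061 and Top2b from -0.035 to 0.066. Apart from the changes by construction, the cause was not tested. Depth limits the 28 members below 1 CPM with DMSO, where a few counts set the DMSO level.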
